A study of Mus musculus with 24 samples.

Results

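Akap12 (ENSMUSG00000038587) is 1 of the 55359 genes counted in cultured mouse oligodendrocytes that were kept with or without ethanol. The gene was picked by name, with its level and its change at both ethanol doses already known from these data. Its differences between ethanol and control wells, and between the control groups, are therefore given as a description, with standard errors and no p-value. Its pattern among wells of the same group did not enter the choice.

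The cells were immature oligodendrocytes from the cortices of C57BL/6J pups at postnatal day 5 to 7, sorted with a magnetic antibody against O4, a lipid antigen of the oligodendrocyte lineage. All wells, controls included, were first differentiated for 3 days, mainly with the thyroid hormone triiodothyronine, and then kept for 3 more days at their ethanol concentration. Experiment 1 had 6 wells at 30 mM ethanol and 6 control wells at 0 mM, and experiment 2 had 6 wells at 10 mM and 6 control wells at 0 mM. Each dose was used in 1 experiment, which is also a batch in the labels, so dose and batch cannot be told apart. Control plates stood in an incubator of their own, so the effect of ethanol and that of the incubator cannot be told apart either. The labels number the wells of a group as biological replicates and do not say which animals or cultures they came from, so that the p-values measure the spread between these wells.

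AKAP12, also called gravin or SSeCKS, is a large scaffold protein of the A-kinase anchoring family. Such proteins hold protein kinase A (PKA), the kinase switched on by cyclic AMP, at a defined place in the cell. AKAP12 sits at the plasma membrane and also binds protein kinase C, calmodulin, calcineurin and cyclins, and it is itself a substrate of protein kinase C. In the brain it has been described in astrocytes, pericytes, meningeal fibroblasts and oligodendrocyte precursors. It has been linked to the blood-brain barrier and to oligodendrocyte differentiation.

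Counts came from 3′ tag sequencing, which reads the end of each transcript, so that a count does not scale with transcript length. Levels of different genes are set side by side below as a description, and how evenly genes were captured was not tested. In the GENCODE M21 annotation the gene has 3 transcripts, 2 of them protein-coding, and all 3 share the same 3′ end, so these counts cannot tell them apart. No annotated gene overlaps Akap12 there (0 genes). Levels below are CPM, counts scaled to the library size after TMM normalization, which sets the bulk of genes equal between wells. Wells had totals of 1184609 to 1817028 counts. In a bulk sample, fewer cells of a type and less RNA per cell cannot be told apart.

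Akap12 was highest in the control wells of experiment 1, with replicates 1 to 6 at 189, 204, 215, 209, 160 and 191 CPM (mean 194.7 ± 19.6, SD, n = 6). The wells at 30 mM ethanol had 105, 102, 97.4, 86.3, 104 and 119 CPM in the same numbering (mean 102 ± 10.7, SD, n = 6). Every ethanol well was below every control well, and 41.3 CPM separated the lowest control well from the highest ethanol well. The level at 30 mM was 52.5% of the control level in the fitted model, a log2 fold change of -0.93 (SE 0.082).

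In experiment 2 the control wells had 144, 145, 118, 132, 126 and 130 CPM (mean 132 ± 10.3, SD, n = 6). The wells at 10 mM ethanol had 91.6, 106, 95.8, 103, 101 and 103 CPM (mean 100.1 ± 5.43, SD, n = 6). The groups again did not overlap, although the gap between the nearest wells was narrower, 11.7 CPM. The fitted level at 10 mM was 75.1% of the control level, a log2 fold change of -0.41 (SE 0.0744). The counts behind these levels ran from 114 to 355 reads per well.

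**Figure D1:**
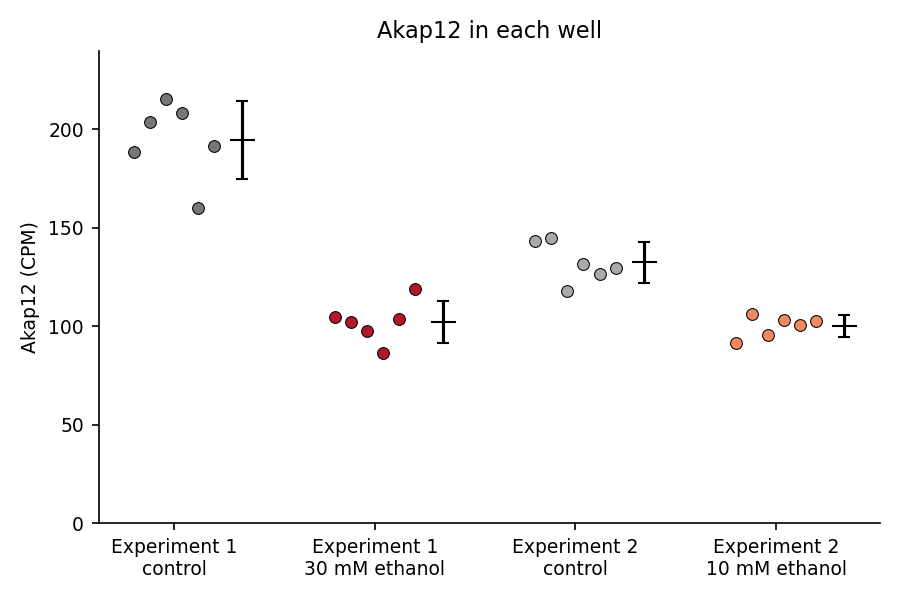
Akap12 level in CPM (linear axis) in each of the 24 wells, by group, with a horizontal line for the group mean and bars of 1 SD. All 6 ethanol wells lie below all 6 control wells in each experiment, and the 30 mM and 10 mM wells lie at about 100 CPM in both experiments while the control groups sit at different levels.

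The order of the group means was the experiment 1 controls, the experiment 2 controls, 30 mM and 10 mM. The last 2 did not differ beyond their spread, with means of 102 and 100.1 CPM, wells from 86.3 to 119 and from 91.6 to 106 CPM, and a difference of 0.03 in mean log2 CPM. The highest well at 30 mM, 119.0 CPM, also reached just above the lowest control well of experiment 2, 118.2 CPM. These levels come from different experiments and are set side by side as a description.

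The log2 fold change at 30 mM minus that at 10 mM was -0.53 (SE 0.113). The ethanol groups lay at like levels, and the control groups, kept in parallel, at different ones. Between the controls of experiment 1 and those of experiment 2 the mean log2 CPM differed by 0.55, and between the ethanol groups by 0.03. The control groups enter both this difference and the comparison at each dose, so the values are not independent of each other.

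Akap12 was higher in the controls of experiment 1 than in those of experiment 2, with a log2 difference of 0.54 (SE 0.0715), or 1.45-fold. The same control wells enter the ethanol differences for which the gene was chosen, so no test of this difference is given. All 6 control wells of experiment 1, from 160 to 215 CPM, were above all 6 of experiment 2, from 118 to 145 CPM. Of 13479 genes tested in this contrast with edgeR, 43.6% were called, 21.3% higher in experiment 1 and 22.3% lower, so that differences between the control groups were common among genes. Its difference was within 0.48 to 0.60 in every fit with another setting or with 1 well left out.

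Set among all genes, the shift of Akap12 at 30 mM was the 62nd most negative of 13235 tested, where the median log2 fold change was 0.02. At 10 mM it was the 304th most negative of 13538, where the median was 0.00. At an adjusted p under 0.05, 9.67% of genes were called at 30 mM, 6.65% lower and 3.02% higher, against 0.657% at 10 mM, 0.266% lower and 0.391% higher. Genes whose 6 ethanol wells all lay below their 6 control wells made up 3.09% of those tested at 30 mM and 0.303% at 10 mM. Genes with all ethanol wells above made up 1.08% and 0.502%, so that the groups did not overlap for 4.17% and 0.805% in all. Akap12 belongs to the lower set at both doses, and since its change was known when it was chosen, nothing is read from that.

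The spread of Akap12 within groups was small. Its coefficient of variation between wells was 10.1% in the controls of experiment 1, 10.4% at 30 mM, 7.77% in the controls of experiment 2 and 5.43% at 10 mM. Counting error alone gives 5.97%, 8.67%, 7.48% and 8.48% for the same groups, so the excess over counting error was largest in the controls of experiment 1. In those controls replicate 5, at 160 CPM, was the low well, with the other wells from 189 to 215 CPM. The biological coefficient of variation that edgeR fitted for Akap12 was 7.27% in experiment 1, beside 7.24% for genes of its level. In experiment 2 it was 4.66%, beside 5.29%. In this fit the value of a gene is drawn toward that of genes of its level. The nearness of these values therefore cannot show whether Akap12 varied as much as other genes. Akap12 was more abundant than 90.7% of the genes tested in experiment 1 and 87.9% of those in experiment 2.

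The other A-kinase anchoring genes had smaller shifts, and their differences from Akap12 were not tested. Of 16 others in the table, 11 were tested at each dose. At 30 mM 1 of the 11 was called, a share near the 9.67% of all genes. This gene was Akap8, which encodes a nuclear anchoring protein and fell from 69.5 ± 6.74 to 56.0 ± 4.36 CPM (SD, n = 6), or in log2 terms by 0.31 (adjusted p = 0.0367 in edgeR, SE 0.0983). Its wells overlapped those of the controls, and DESeq2 did not call it while limma voom did. The other 10 had log2 fold changes from -0.05 to 0.59 and did not pass, and the median over the 11 genes was 0.14, beside 0.02 for all genes. At 10 mM none of the 11 was called by edgeR, DESeq2 or limma voom (0 genes each, and 1 at an unadjusted p under 0.05 in edgeR), where 0.657% of all genes were, with values from -0.31 to 0.28 and a median of -0.10. In the test of the difference between the doses none of 12 was called by any of these tools (0 genes, and 2 at an unadjusted p under 0.05), where 3.28% of all genes were, 0.880% with a positive and 2.40% with a negative difference. Leaving out replicate 1 at 30 mM, a well that stands apart in myelin genes, added Akap13, which encodes a guanine nucleotide exchange factor, as higher by 0.33 (edgeR adjusted p = 0.0206).

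The rank of Akap12 in its family was 1 in both groups of experiment 1, 2 in the controls of experiment 2 and 3 at 10 mM. In the controls of experiment 1 it was the most abundant of the 17 genes, at 194.7 CPM, with Akap9, a scaffold of the centrosome and Golgi, next at 97.9 CPM. At 30 mM it was level with Akap13, 102 against 100.6 CPM, with wells of Akap13 from 76.6 to 135 CPM. Akap13 was at 84.5 CPM in the controls of experiment 1 and at 146 CPM in those of experiment 2, where Akap12 had 132 CPM. At 10 mM both Akap13 (142 CPM) and Akap9 (107 CPM) were above Akap12. The wells of Akap9 at 10 mM ran from 94.8 to 127 CPM and overlapped those of Akap12. Between the control groups 5 of 11 family members were called, a share near the 43.6% of all genes, Akap5 and Akap8l higher in experiment 1 and Akap9, Akap13 and Akap14 lower.

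**Figure D2:**
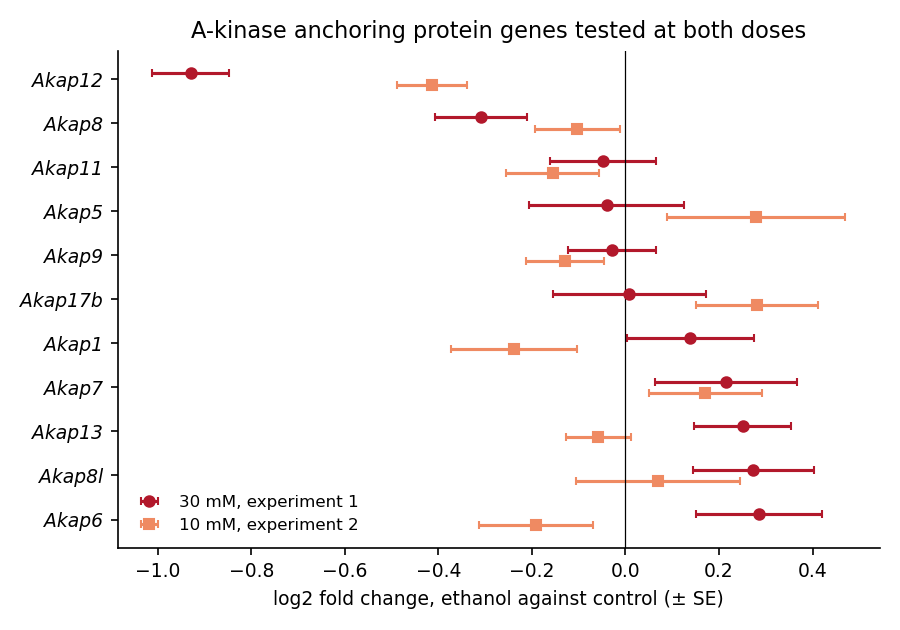
Log2 fold change (± SE) of ethanol against control for the A-kinase anchoring genes tested at both doses, with circles for 30 mM and squares for 10 mM. Akap12 lies to the left of the other genes at both doses, and of the other genes Akap8 passed edgeR's adjusted p of 0.05, at 30 mM.

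Of 8 genes for subunits and peptide inhibitors of PKA, the kinase that AKAP12 anchors, 1 was called at 30 mM, where 9.67% of all genes were. It was Pkia, which encodes a peptide inhibitor of the catalytic subunit. Pkia fell from 104 ± 6.33 to 85.5 ± 7.77 CPM (SD, n = 6), or in log2 terms by 0.28 (adjusted p = 0.0259 in edgeR, SE 0.0846), and its groups did not overlap. DESeq2 did not call Pkia and limma voom did. The catalytic subunit gene Prkaca had 122 ± 10.9 CPM in the controls and 127 ± 19.9 at 30 mM (SD, n = 6). Prkar2a, which encodes a regulatory subunit of the type that many anchoring proteins bind, had 121 ± 5.99 and 126 ± 7.62 CPM (SD, n = 6). At 10 mM none of 9 was called by edgeR, DESeq2 or limma voom, nor at an unadjusted p under 0.05 (0 genes each), where 0.657% of all genes were called, and the list's median was -0.01, beside 0.00 for all genes. Between the control groups, where 43.6% of all genes were called, 5 of 9 PKA genes were, with Prkaca higher in experiment 1 by 0.86 (edgeR adjusted p = 1.39e-14, SE 0.0845).

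Genes that make, break down or answer to cyclic AMP are set here beside the 9.67% of all genes called at 30 mM and the 0.657% at 10 mM. Of 12 genes for adenylyl cyclases, G protein alpha subunits and adrenergic receptors tested at 30 mM, 1 was called, Adcy8, a calcium-stimulated adenylyl cyclase. Adcy8 rose from 14.4 ± 1.51 to 21.9 ± 6.46 CPM (SD, n = 6), or in log2 terms by 0.59 (adjusted p = 0.0461 in edgeR, SE 0.195). Neither DESeq2 nor limma voom called Adcy8, and voom called Adcy9 in its place. Without replicate 1 at 30 mM, Adcy7 (0.62) and Adcy9 (0.62), which encode other adenylyl cyclases, were called as well, so the count went from 1 to 3 of 12. At 10 mM none of these 12 was called by the 3 tools or at an unadjusted p under 0.05 (0 genes). None of 11 phosphodiesterase genes was called at 30 mM and none of 13 at 10 mM by the 3 tools (0 genes each, and 1 each at an unadjusted p under 0.05 in edgeR), with medians of 0.05 and -0.08. Of the CREB factors and cyclic AMP response genes, none of 16 was called at 30 mM by the 3 tools (0 genes, and 5 at an unadjusted p under 0.05 in edgeR), and at 10 mM 1 of 15 was, Fos, an immediate early transcription factor, higher by 0.38 (edgeR adjusted p = 0.0184, SE 0.0889).

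Among 18 genes for other proteins that AKAP12 is reported to bind or scaffold, 6 were called at 30 mM, 4 lower and 2 higher, where 9.67% of all genes were called, 6.65% lower and 3.02% higher. Ccnd1, which encodes cyclin D1, fell from 475 ± 30.5 to 334 ± 19.2 CPM (SD, n = 6), or in log2 terms by 0.51 (adjusted p = 6.65e-08 in edgeR, SE 0.0616). Plk1, a mitotic kinase, fell from 77.7 ± 8.81 to 47.9 ± 10.4 CPM (SD, n = 6), or in log2 terms by 0.70 (adjusted p = 1.97e-05 in edgeR, SE 0.113). Neither overlapped its controls. Src, a tyrosine kinase, fell by 0.36 and Calm2, a calmodulin gene, by 0.25. Ppp3ca, the catalytic subunit of calcineurin, rose by 0.24 and Prkcz, an atypical protein kinase C, by 0.66. Without replicate 1 at 30 mM Prkcz was no longer called and Ppp3r1, the regulatory subunit of calcineurin, was (-0.33, edgeR adjusted p = 0.0277). DESeq2 called the same genes at 30 mM apart from Src, and limma voom added Calm3. None of the 18 was called at 10 mM by the 3 tools (0 genes, and 1 at an unadjusted p under 0.05 in edgeR), where edgeR called 0.657% of all genes. In the test between the doses Ccnd1 and Plk1 passed, with differences of -0.35 (edgeR adjusted p = 0.00955) and -0.70 (edgeR adjusted p = 0.00493). The list's median was -0.08 at 30 mM and 0.01 at 10 mM.

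AKAP12 resembles the MARCKS proteins in being a membrane-bound substrate of protein kinase C. Of 6 such genes, 3 fell and 1 rose at 30 mM, beside the same 6.65% and 3.02% of all genes. Basp1, which encodes a myristoylated membrane protein, fell from 253 ± 32.8 to 185 ± 14.0 CPM (SD, n = 6), or in log2 terms by 0.45 (adjusted p = 5.47e-05 in edgeR, SE 0.0762), with no overlap between groups. Marcks fell by 0.23 and Gap43, a growth cone protein, by 0.25, the last not called by DESeq2. Add3, an adducin of the membrane skeleton, rose by 0.26 (edgeR adjusted p = 0.00994, SE 0.0692). At 10 mM none of the 6 was called by the 3 tools (0 genes, and 1 at an unadjusted p under 0.05 in edgeR), and Basp1 was at -0.23 (SE 0.0694, edgeR adjusted p = 0.108). The genes called lower in these lists had shifts of -0.70 (Plk1) to -0.23 (Marcks) at 30 mM, beside -0.93 for Akap12.

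**Figure D3:**
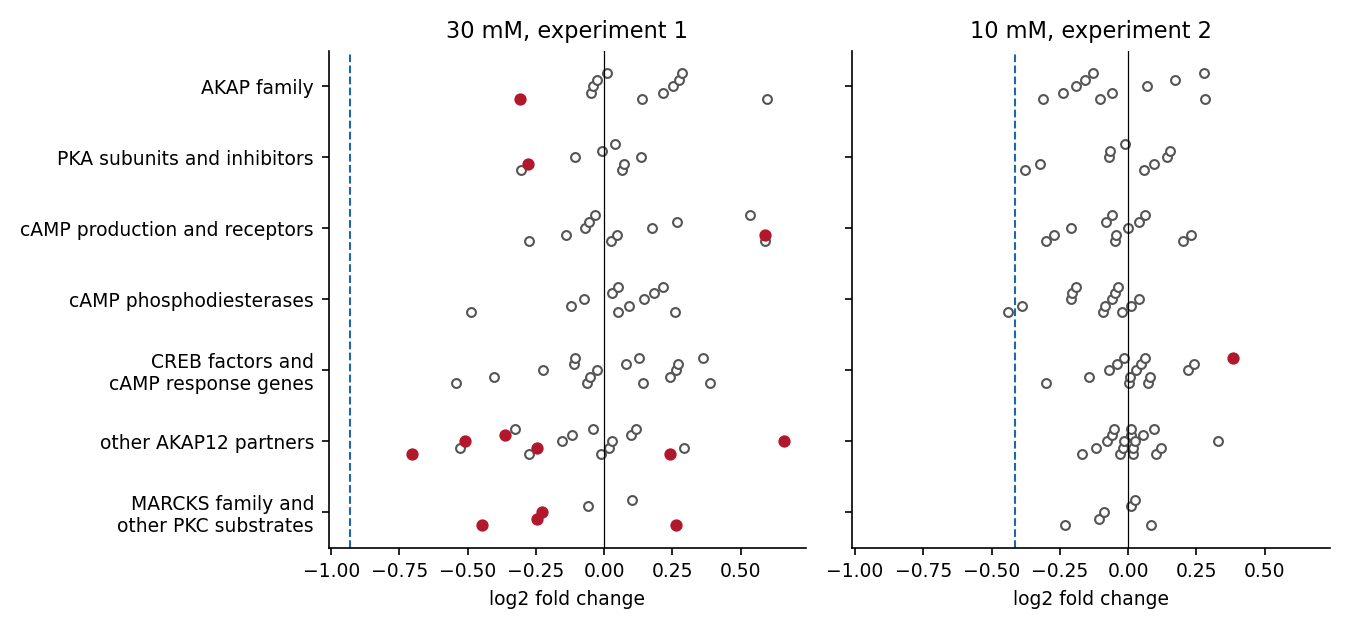
Log2 fold changes of the genes in each pathway list at 30 mM and at 10 mM, with filled points for an adjusted p under 0.05 (edgeR) and open points for the rest. The dashed line marks Akap12, which is not among the points, at -0.93 for 30 mM and -0.41 for 10 mM, and the genes of these lists lie to its right at 30 mM, as do all but Pde8a (-0.44, not called) at 10 mM.

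The genes beside Akap12 did not move as a block. In the RefSeq order of GRCm38.p6, Iyd, Plekhg1 and Mthfd1l precede it on the same strand, and Zbtb2, Rmnd1 and Armt1 follow it. The nearest of these after Akap12, Zbtb2, which encodes a zinc finger transcription factor, lies on the opposite strand with its end facing that of Akap12. Zbtb2 fell at 30 mM from 12.9 ± 2.42 to 6.55 ± 0.903 CPM (SD, n = 6), or in log2 terms by 0.94 (adjusted p = 0.0115 in edgeR, SE 0.254), with no overlap between groups. DESeq2 gave Zbtb2 no adjusted p, and limma voom called it. At 10 mM it was at -0.38 (SE 0.22, edgeR adjusted p = 0.577), with wells that overlapped. The use of strand in counting is not given in the sources used here, and without it reads past the end of either gene could count for the other, which was not tested. Plekhg1, which encodes a guanine nucleotide exchange factor, rose at 30 mM by 0.41 (edgeR adjusted p = 0.0211, SE 0.121). Mthfd1l, a mitochondrial folate enzyme, had -0.55 (edgeR adjusted p = 0.167), and Rmnd1 and Armt1 had 0.14 and 0.09. Iyd was too low to be tested.

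Which genes followed Akap12 from well to well was read after the mean of each group had been subtracted, so that neither ethanol nor experiment entered. Over 24 wells and 9725 genes with a mean log2 CPM of at least 4, Pearson's r with Akap12 had a median of 0.03 and ran from -0.84 to 0.76. The most positive genes were Ppp1r12c (0.76), a regulatory subunit of myosin phosphatase, 2010111I01Rik (0.75), Plxna4 (0.71), a semaphorin receptor, Map3k7 (0.70), the kinase TAK1, and Smim20 (0.69). The most negative were 1810043G02Rik (-0.84), Atp6v1h (-0.70), a subunit of the vacuolar proton pump, Eln (-0.70), which encodes elastin, Fignl1 (-0.67) and Lyrm4 (-0.67). The log2 fold changes of these 10 genes ran from -0.19 to 0.15 at 30 mM and from -0.15 to 0.22 at 10 mM, beside -0.93 and -0.41 for Akap12. As the highest and lowest of 9725 values over the same 24 libraries, these are descriptions.

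The 2 experiments shared little of this pattern. Across the 9725 genes, r with Akap12 in one experiment and r in the other had a correlation of 0.06, as a description across genes, which are not independent. The 10 most positive genes of experiment 1 (r from 0.78 to 0.84) had r from -0.42 to 0.75 in experiment 2, with 3 positive, 7 negative and a median of -0.20. The 10 most positive of experiment 2 (r from 0.84 to 0.89) had r from -0.33 to 0.46 in experiment 1, with 5 of each sign and a median of 0.01. None of these 20 readings passed after adjustment over the 10 genes of its experiment (0 genes, and 1 at an unadjusted permutation p under 0.05). The nearest was Ppp1r12c, chosen in experiment 1 and read in experiment 2 with r = 0.75 (permutation p = 0.00522, adjusted p = 0.0522) and Spearman's rho = 0.74 (permutation p = 0.0099, adjusted p = 0.099), and with r = 0.67 without the 2 wells farthest from the median of Akap12.

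The 10 most negative genes of each experiment were read in the same way, a step added after the positive genes had been seen. 1810043G02Rik was the most negative gene in experiment 1 (r = -0.88) and was also negative in experiment 2, with r = -0.85 (permutation p = 0.00271, adjusted p = 0.0204) and rho = -0.80 (permutation p = 0.00649, adjusted p = 0.0262). Without the 2 wells farthest from the median its r was -0.76. It was also among the 10 most negative of experiment 2, and reading it in experiment 1 (permutation p = 0.00074, adjusted p = 0.0074) uses the same pair of correlations and is no separate result. In the same set, Fis1, a mitochondrial fission adaptor, and Gpx4, which reduces lipid peroxides, passed with the opposite sign, negative in experiment 1 (-0.84 and -0.75) and positive in experiment 2 (0.74 and 0.69, permutation adjusted p = 0.0204 for each). Of the 10 genes chosen in experiment 1, 5 were negative and 5 positive in experiment 2. Of the 10 chosen in experiment 2, 7 were negative and 3 positive in experiment 1. No other gene among the 40 readings passed with an unchanged sign.

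**Figure D4:**
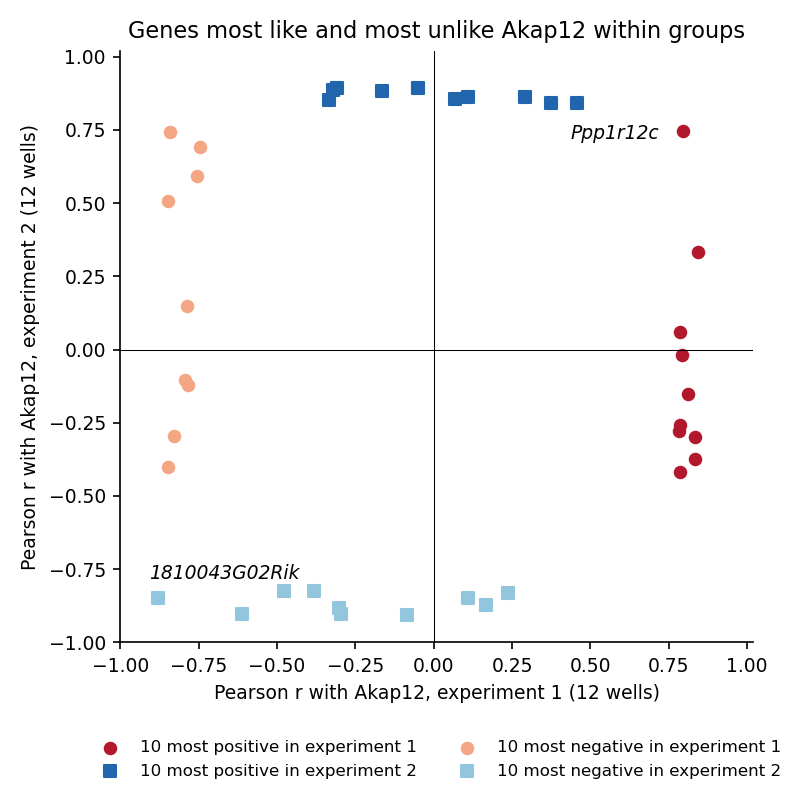
Pearson's r with Akap12 after subtraction of group means, in experiment 1 (horizontal) and experiment 2 (vertical, 12 wells each), for the 10 most positive and the 10 most negative genes of each experiment. Genes chosen on 1 axis scatter along the other, apart from Ppp1r12c in the upper right corner and 1810043G02Rik in the lower left, where its circle and its square coincide.

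The labelled cell type was checked on 12 mature oligodendrocyte markers, and 8 lists of markers of other cells were read beside it. The mature oligodendrocyte sum was 7712 to 9423 CPM in the controls of experiment 1 and 9874 to 16910 CPM at 30 mM, with no overlap. Of 11 of these genes tested, 7 rose at 30 mM, where 3.02% of all genes were called higher, and all 11 log2 fold changes were positive, with a median of 0.42. Without replicate 1 at 30 mM the count was again 7 and the median was 0.23, but Mog (-0.08) and Opalin (-0.02) were negative and not called. In experiment 2 the sum was 7118 to 9104 CPM in the controls and 8632 to 9541 CPM at 10 mM, with overlap. There 3 of 11 rose, Mag, Cnp and Mal, where 0.391% of all genes were called higher, and all 11 were again positive. The myelin genes that were called thus rose in the wells in which Akap12 was lower, and their part in its level was not tested. Oligodendrocyte precursor markers, 10 genes of a cell type in which AKAP12 is known, summed to 1116 to 1266 CPM in the controls of experiment 1 and to 1093 to 1304 CPM at 30 mM, with 1 of 10 genes called, Cspg5, higher. In experiment 2 they summed to 1309 to 1424 CPM in the controls and 1267 to 1461 CPM at 10 mM, with none called by edgeR, DESeq2 or limma voom (0 genes, and 3 at an unadjusted p under 0.05 in edgeR). Of all genes, edgeR called 9.67% at 30 mM, 3.02% higher, and 0.657% at 10 mM. At 30 mM 7 of the 10 precursor genes had a negative log2 fold change, and Ptprz1 and Cspg5, at 449.8 and 325 CPM in the controls of experiment 1, made up most of the sum. The part of precursor cells in the level of Akap12 was not tested.

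In the lists of vessel cell markers, the endothelial gene Cldn5 was at 0 in 23 of 24 wells and the pericyte gene Higd1b in 22 of 24. Other members were counted, and in each group 3 of 8 endothelial and 1 or 2 of 8 pericyte markers had a mean under 2 CPM. Pericyte markers summed to 66.4 to 83.1 CPM in the controls of experiment 1 and 55.2 to 98.4 CPM at 30 mM, and to 77.8 to 93.5 and 75.0 to 101 CPM in experiment 2. None of 4 tested pericyte genes was called at either dose by the 3 tools (0 genes, and at an unadjusted p under 0.05 in edgeR 0 at 30 mM and 1 at 10 mM). Of all genes, edgeR called 9.67% at 30 mM and 0.657% at 10 mM. Endothelial markers summed to between 48.3 and 87.0 CPM in all groups, with none called by the 3 tools (0 genes, and 1 at each dose at an unadjusted p under 0.05). Astrocyte markers were higher at 30 mM, with 5 of 9 genes called higher, where 3.02% of all genes were. They summed to 5105 to 6609 CPM against 3726 to 4683 CPM in the controls. At 10 mM their sum overlapped that of the controls, and none was called by the 3 tools (0 genes, and 1 at an unadjusted p under 0.05).

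Contractile smooth muscle and fibroblast markers moved in the same direction as Akap12 at 30 mM. The contractile sum of 8 genes was 228 to 394 CPM at 30 mM and 799.9 to 1018 CPM in the controls. Of 6 genes tested, 5 were called lower, where 6.65% of all genes were. The other, Myocd, was positive (0.41) and not called. The fibroblast sum was 308 to 377 CPM against 465 to 723 CPM, also with no overlap, and 5 of 8 genes were called lower, beside the same 6.65%. At 10 mM the contractile sum was 95.4 to 164 CPM against 125 to 165 CPM in the controls, with none of 4 called by the 3 tools (0 genes, and 3 at an unadjusted p under 0.05 in edgeR). The fibroblast sum at 10 mM was 601 to 658 CPM against 580 to 789 CPM, with 2 of 8 genes called lower, Col3a1 and Dcn. DESeq2 called both and limma voom only Dcn. Of all genes, edgeR called 0.266% lower at that dose. Between the control groups the contractile sum was higher in experiment 1, as Akap12 was. The fibroblast sums overlapped, with 2 of 8 genes called higher and 4 lower. Precursor sums were lower in experiment 1, at 1116 to 1266 against 1309 to 1424 CPM, with 8 of 10 genes called lower and 1 higher. Of 9 astrocyte genes, 6 were called higher and 2 lower. Among all genes, 21.3% were called higher and 22.3% lower. The part of these cells in the level of Akap12 was not tested.

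**Figure D5:**
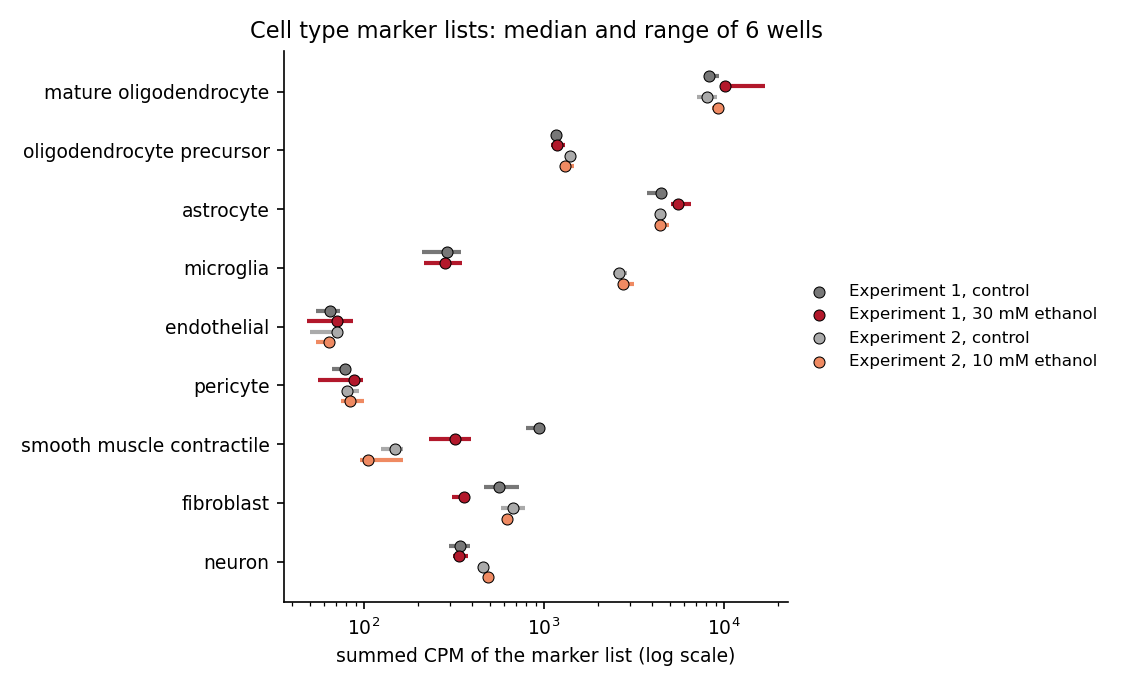
Summed CPM of each marker list (log axis), with a point for the median and a bar for the lowest to the highest of the 6 wells of a group. Contractile and fibroblast sums lie below their controls at 30 mM, microglial sums differ between the experiments, and pericyte and precursor sums overlap between ethanol and control wells.

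Within groups, the summed markers were set against Akap12 over the 24 wells, 9 relations in all, added after the data were seen. By Pearson's r none of the 9 passed, with a smallest permutation adjusted p of 0.439. The contractile sum had r = -0.09 (permutation p = 0.707, rho = 0.02, permutation p = 0.934) and the fibroblast sum r = 0.31 (permutation p = 0.217, rho = 0.30, permutation p = 0.212). The pericyte sum had r = -0.46 (permutation p = 0.0554, adjusted p = 0.439) and passed by rank, with rho = -0.60 (permutation p = 0.00221, adjusted p = 0.0199). Without the 2 wells farthest from the median its r was -0.40, and it was -0.33 in experiment 1 and -0.74 in experiment 2. By rank, wells of a group with more pericyte marker RNA thus tended to be lower in Akap12, and by Pearson's r the relation did not pass. Pericyte sums were low, 55.2 to 101 CPM, so counting error limits how well wells can be ranked by them. The p-values were adjusted over the 9 lists, for r and for rho apart. Only r was read without the 2 wells.

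Replicate 1 at 30 mM stood apart in mature oligodendrocyte markers, with the highest sum of its group, 16910 CPM beside a group median of 10201 CPM. Its Akap12 level, 105 CPM, was inside the range of the other wells at 30 mM, and the log2 fold change of Akap12 ran from -0.98 to -0.89 when each of the 12 wells was left out in turn. Microglial markers summed to 209 to 347 CPM in the controls of experiment 1 and 2430 to 2887 CPM in those of experiment 2, a difference in the opposite direction to that of Akap12. All 11 microglial genes tested were called lower in experiment 1, where 22.3% of all genes were. At 30 mM 1 of 7 microglial genes was called, Cx3cr1, higher and not by DESeq2, and 1 of 5 neuron genes, Stmn2, lower. Of all genes, 3.02% were called higher and 6.65% lower at that dose. At 10 mM 2 of 11 microglial genes were called higher, Cx3cr1 and Fcrls, the last by edgeR alone. Of 6 neuron genes there, Tubb3 and Stmn2 were called, 1 higher and 1 lower, beside 0.391% and 0.266% of all genes. The part of microglia in the control difference of Akap12 was not tested.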

How the data were processed

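The authors deposited raw counts per gene for 24 wells, and 52083 of 55359 Ensembl identifiers (94.1%) matched a symbol. Per the submitters' processing notes, cutadapt 1.18, STAR and GRCm39 were used. The counter, annotation, use of strand and removal of PCR duplicates are not given in the sources used here. Counts were tested with edgeR 4.0.16 (R 4.3.3) by the quasi-likelihood test, with TMM, filterByExpr at a minimum count of 10 and Benjamini-Hochberg adjustment over all genes tested, called at 0.05. The wells of each experiment were fitted separately, and the difference between doses over 24 wells. Levels are CPM scaled over 24 wells, and log2 CPM used a prior count of 2. Permutation p-values came from 100000 two-sided shuffles within groups. The fits were tested on simulated data. Akap12 and the lists were chosen with earlier results of these data known. Genes named were list members called at either dose, up to 5 per list, the family and PKA genes, 3 neighbours on each side, and the 5 or 10 genes with the most extreme r. Not every called marker gene was named. Prkaca, Prkar2a, and genes called without a well or between controls were named outside this rule, after their values were seen. Alternatives were other normalizations and filters, DESeq2 1.42.0, limma 3.58.1 voom, a joint fit, a replicate block and leaving out each well. Names and gene order came from GRCm38.p6 tables, so coordinates are not given.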

Additional observations from a re-analysis of the deposited data

Results flagged for a closer look

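Akap12 itself had no outlying well in any of its 4 groups. Among the tested genes of its family, of PKA and beside it in the genome, 4 of 108 groups of 6 wells held 1 well whose gap to the next exceeded Dixon's limit, where chance gives about 5.4. Akap1 had 23.3 CPM in replicate 6 at 30 mM, with the other wells from 33.7 to 38.6 CPM. Akap5 had 9.32 CPM in replicate 6 at 10 mM, with the others from 17.9 to 22.5 CPM. Akap17b had 33.9 CPM in replicate 1 at 30 mM, with the others from 21.2 to 24.3 CPM. Pkib had 7.33 CPM in replicate 6 at 10 mM, with the others from 10.3 to 11.9 CPM.

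Of 159 list genes tested, 15 had a log2 fold change at 30 mM that differed from that at 10 mM in edgeR's interaction test, where 3.28% of all genes did. Among Akap12's partners and membrane-bound substrates these differences were -0.354 for Ccnd1, -0.703 for Plk1 and 0.356 for Add3. DESeq2 also called Calm2 and Ppp3ca, and DESeq2 and limma voom also called Marcks. Among mature oligodendrocyte markers they were 0.364 for Mbp and 0.457 for Mobp, both called by limma voom and neither by DESeq2. Among astrocyte markers they were 0.373 for Gfap, 0.601 for Aqp4, 0.612 for Slc1a2 and 0.485 for Gja1. Among contractile markers they were -1.43 for Acta2, -1.16 for Cnn1, -1.21 for Myl9 and -1.37 for Tpm2, the last not called by DESeq2. Among fibroblast markers they were -0.792 for Col1a1 and -0.921 for Col1a2. Dose and experiment cannot be told apart in these values.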

How the results depend on the processing

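The log2 fold change of Akap12 kept its sign in every fit. With other settings it ran from -0.96 to -0.92 at 30 mM and from -0.42 to -0.39 at 10 mM, and without single wells from -0.98 to -0.89 and from -0.44 to -0.39. The difference between the doses ran from -0.58 to -0.51 with other settings and from -0.59 to -0.50 without single wells. The control difference ran from 0.48 to 0.59 and from 0.52 to 0.60. Counts of called genes moved more. At 10 mM the joint fit of 24 wells gave 21 genes in place of 89, and leaving out wells gave 37 to 95, with 37 without control replicate 5, 40 without 10 mM replicate 2, 45 without 10 mM replicate 4, 46 without control replicate 6 and 57 without control replicate 4. For the difference between the doses, leaving out wells gave 329 to 759 genes in place of 481, with 759 without 30 mM replicate 1 and 723 without 30 mM replicate 2. At 30 mM the count ran from 953 to 1599 and between controls from 4891 to 7340.

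Wells with the same number did not pair (r from -0.15 to 0.23). With the replicate number as a block, 1208 genes were called at 30 mM, 68 at 10 mM, 461 for the interaction and 5860 between controls, and Akap12 had -0.93, -0.41, -0.53 and 0.54. The median reading of the 10 positive genes of experiment 1 became 0.07 under this block and that of experiment 2 became -0.24, and without single wells they ran from -0.22 to 0.15 and from -0.24 to 0.26. With 114 to 355 reads per well, counting error for Akap12 was 5.97% to 8.67%, which limits how well the small differences between wells of a group can be ranked.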
